A study of Mus musculus with 20 samples.

Results

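The genes described are the nuclear-encoded subunits of the oxidative phosphorylation chain in mouse colon. Members were the protein-coding genes present in both count tables whose symbols start with Ndufa, Ndufb, Ndufc, Ndufs or Ndufv (not Ndufaf), with Uqcr, Cox4, Cox5, Cox6, Cox7, Cox8 or Atp5, or are Sdha, Sdhb, Sdhc, Sdhd, Cyc1 or Cycs. The rule found 87 genes, of 56748 in the chow table and 31184 in the high fat diet (HFD) table. They comprise 37 of complex I, 4 of complex II, 9 of complex III, cytochrome c (Cycs), 19 of complex IV and 17 of complex V. Ndufa4 and Ndufa4l2 were placed in complex IV, where the NDUFA4 protein is now known to reside. A further 4 rows of the chow table met the name rule (Cox7b2, Cox8c, Ndufb11b and a second row named Atp5o), but had no read in any chow library and were not among the rows of the HFD table used here.

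The libraries came from whole colon of mice with floxed Pcca, the gene for 1 of the subunit types of the enzyme that carboxylates propionyl-CoA in mitochondria. In every group the Pcca alleles were floxed. Mice without Cre are called ff, mice with Villin-Cre (active in the intestinal epithelium) are called Vill, and mice with Albumin-Cre (active in hepatocytes) are called Alb. On chow (5V75) the groups were ff, Vill and Alb, killed at 9 weeks of age. On the 60% kcal fat diet (D12492) the groups were ff and Vill, male, fed chow until 6 weeks and then the diet for 12 weeks, and 18 weeks old at the end. All animals were fasted for 4 h, and each group had 4 libraries. All 12 chow libraries carried between 22486 and 59322 reads of Xist and none of the Y-linked Ddx3y, so chow and HFD libraries differed in sex as well as in diet and age, and these cannot be told apart.

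Complex I (NADH dehydrogenase) and complex II (succinate dehydrogenase) pass electrons to ubiquinone, complex III passes them to cytochrome c, and complex IV (cytochrome c oxidase) passes them to oxygen. Complexes I, III and IV pump protons, and complex V (ATP synthase) uses the gradient to make ATP. Most subunits are nuclear genes whose proteins are imported into the mitochondrion and assembled with a few subunits encoded by mitochondrial DNA. Colonocytes are known to oxidise short-chain fatty acids such as butyrate, which makes this chain a central part of their metabolism.

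Chow libraries held 27857056 to 40385785 counted reads and HFD libraries 16881567 to 24423757. Nothing in the labels settles whether the libraries keep the strand, and 18 members overlap another annotated gene that had over 5% of the member's own chow reads, so their reads may be mixed with that neighbour's. These are Ndufa2, Ndufa3, Ndufa11, Ndufb1, Ndufb2, Ndufb5, Ndufb11, Ndufs1, Ndufs3, Ndufs6, Cox4i1, Cox6a2, Cox6c, Ndufa4l2, Atp5j, Atp5md, Atp5o and Atp5pb. Cox5b-ps, whose symbol marks a pseudogene, is annotated as protein-coding and so was counted in complex IV. Reads of Cox5b and Cox5b-ps may also be split between them. Pcca itself had 47.9 ± 9.05 CPM (reads scaled by library size; SD, n = 4) in chow ff, 30.01 ± 2.50 in chow Vill and 45.5 ± 8.75 in chow Alb, with 43.9 ± 14.9 in HFD ff and 34.5 ± 1.86 in HFD Vill. In the HFD libraries the Vill range of 33.2 to 37.3 CPM lay inside the ff range of 29.9 to 59.5 CPM. HFD ff libraries 1 and 3 carried 25.6 and 18.0 CPM of the ileal gene Fabp6, against 0.93 to 5.697 CPM in the other HFD libraries. Car1, a marker of colon epithelium, was present in all 20 libraries, but ran from 265.6 CPM in HFD Vill library 3 to 9593 CPM in chow Vill library 1.

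Promoter windows from RefSeq (GRCm38.p6, 250 bases before to 50 after a gene's start) were available for 70 of the 87 members, in 75 windows. Each was searched on both strands for 4 short motifs, chosen from general knowledge, of factors known to act on respiratory genes. The NRF1 motif GCGCATGCG was in 12% of the members' windows and in 2.35% of the windows of all protein-coding genes. The YY1 motif AAGATGGCG was in 9.33% against 1.83%, the estrogen-related receptor (ERR) motif CAAGGTCA in 5.33% against 1.34%, and the ETS motif CCGGAAGT in 6.67% against 5.15%. No motif contains another, and 23 of 70 members held at least 1. A match describes letters only and does not show that a factor binds.

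Below are the windows of the members with matches to both the NRF1 motif and a second one (Uqcr11, a small subunit of complex III, and Atp5l, subunit g of ATP synthase), of Cycs, and of Cox7a1, the muscle isoform of a complex IV subunit, which held none. Each is printed from 250 bases before the start to 10 after it, with matches in capitals. In Cycs and Uqcr11 the NRF1 match ends at bases 198 and 254 of the window, and in Atp5l it lies at bases 10 to 18.
Cycs (chr6:50566560-50566819, minus strand): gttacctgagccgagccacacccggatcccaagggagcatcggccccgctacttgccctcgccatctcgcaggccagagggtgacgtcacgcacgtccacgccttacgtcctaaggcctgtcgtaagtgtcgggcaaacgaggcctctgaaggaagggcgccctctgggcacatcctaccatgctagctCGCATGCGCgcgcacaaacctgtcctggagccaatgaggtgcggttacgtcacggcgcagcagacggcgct
Uqcr11 (chr10:80406812-80407071, minus strand): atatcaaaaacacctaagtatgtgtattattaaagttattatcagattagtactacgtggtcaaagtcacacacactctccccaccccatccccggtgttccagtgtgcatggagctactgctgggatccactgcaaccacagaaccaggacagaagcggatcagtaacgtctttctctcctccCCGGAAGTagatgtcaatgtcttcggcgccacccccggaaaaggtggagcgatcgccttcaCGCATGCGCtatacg
Atp5l (chr9:44920733-44920992, minus strand): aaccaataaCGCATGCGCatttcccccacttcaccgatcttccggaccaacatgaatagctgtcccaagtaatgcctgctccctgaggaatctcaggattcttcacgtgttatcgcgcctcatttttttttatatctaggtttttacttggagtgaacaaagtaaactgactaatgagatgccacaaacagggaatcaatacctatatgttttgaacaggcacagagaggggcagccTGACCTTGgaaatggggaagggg
Cox7a1 (chr7:30183921-30184180, plus strand): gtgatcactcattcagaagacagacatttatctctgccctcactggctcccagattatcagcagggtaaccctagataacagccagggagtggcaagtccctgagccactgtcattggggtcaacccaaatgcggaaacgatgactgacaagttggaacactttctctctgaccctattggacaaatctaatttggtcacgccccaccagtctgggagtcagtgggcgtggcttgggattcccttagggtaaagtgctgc

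Levels per length (TPM, reads scaled by gene length and then by the library's sum) differed widely between members, and complex IV held both ends of the order. Cox6a1, a nuclear subunit of cytochrome c oxidase, had the highest mean over the 20 libraries at 1926 TPM, and its muscle counterpart Cox6a2 the lowest at 0.276 TPM. Next after Cox6a1 came Cox8a at 1747 TPM, the catalytic ATP synthase subunits Atp5a1 (alpha) at 1359 TPM and Atp5b (beta) at 1198 TPM, then Cox6b1 at 1037 and Cox4i1 at 1009 TPM. In complex III, Uqcr10 was highest at 732.1 TPM and the core subunit Uqcrc1, scaled by 4135 bases, lowest at 184.2 TPM. In complex II, the membrane anchor Sdhd led at 684.6 TPM and the other anchor, Sdhc, was lowest at 197.7 TPM. In complex I the range ran from Ndufa1 at 556 TPM to Ndufb2 at 6.02 TPM, and Ndufb2 is scaled by a long union of exons (5628 bases) and overlaps Braf. In complex V the lowest was Atp5l at 52.5 TPM, and Atp5l too is scaled by a long length (6443 bases). Without length scaling it was not the lowest. Over the chow ff and Vill libraries it had 82.0 CPM, against 37.3 for Atp5o and 51.4 for Atp5k. Neighbours in this order often did not differ beyond their spread. In chow ff, for example, Cox6a1 had 2231 ± 185 TPM and Cox8a 1900 ± 135 TPM, while Atp5a1 had 1304 ± 149 and Atp5b 1190 ± 145 TPM (SD, n = 4).

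**Figure D1:**
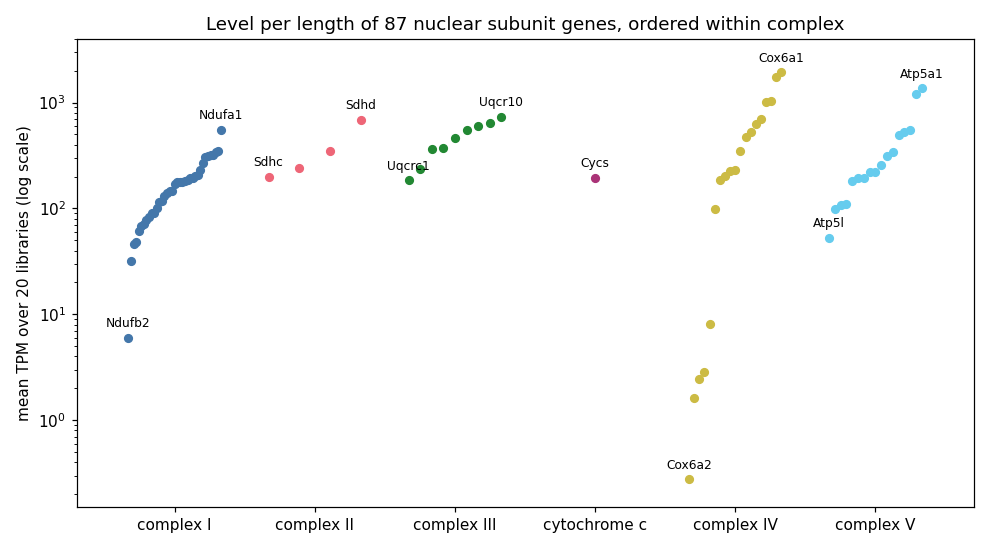
Mean TPM over 20 libraries (vertical log axis) of the 87 members, 1 point a gene, ordered within each complex, with the highest and lowest of each named. Complex IV runs from Cox6a2 at 0.276 TPM to Cox6a1 at 1926 TPM.

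Together the members made up 1.32% to 1.65% of the reads of a chow library and 1.48% to 1.81% of those of an HFD library. Within a diet the summed level of a complex moved little between libraries. The highest library exceeded the lowest by 1.25-fold for complex I, 1.31-fold for complex II, 1.36-fold for complex III, 1.28-fold for complex IV and 1.31-fold for complex V on chow. On HFD these ratios were 1.27, 1.28, 1.26, 1.42 and 1.28. The single gene of cytochrome c, the mobile electron carrier, varied more, by 2.43-fold on chow and 1.89-fold on HFD. Cycs had 155.7, 282.4, 156.3 and 157.8 CPM in the chow ff libraries, 246.8, 144.6, 118.5 and 226.5 in chow Vill, and 174.0, 116.2, 187.5 and 135.1 in chow Alb. Library 2 of ff stood above the other 11 chow libraries, and the ranges of the 3 genotypes overlapped. On HFD, Cycs had 271.0, 260.8, 294.3 and 306.3 CPM in ff and 254.0, 345.4, 204.2 and 386.4 in Vill, where the Vill libraries lay on both sides of all ff libraries.

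**Figure D2:**
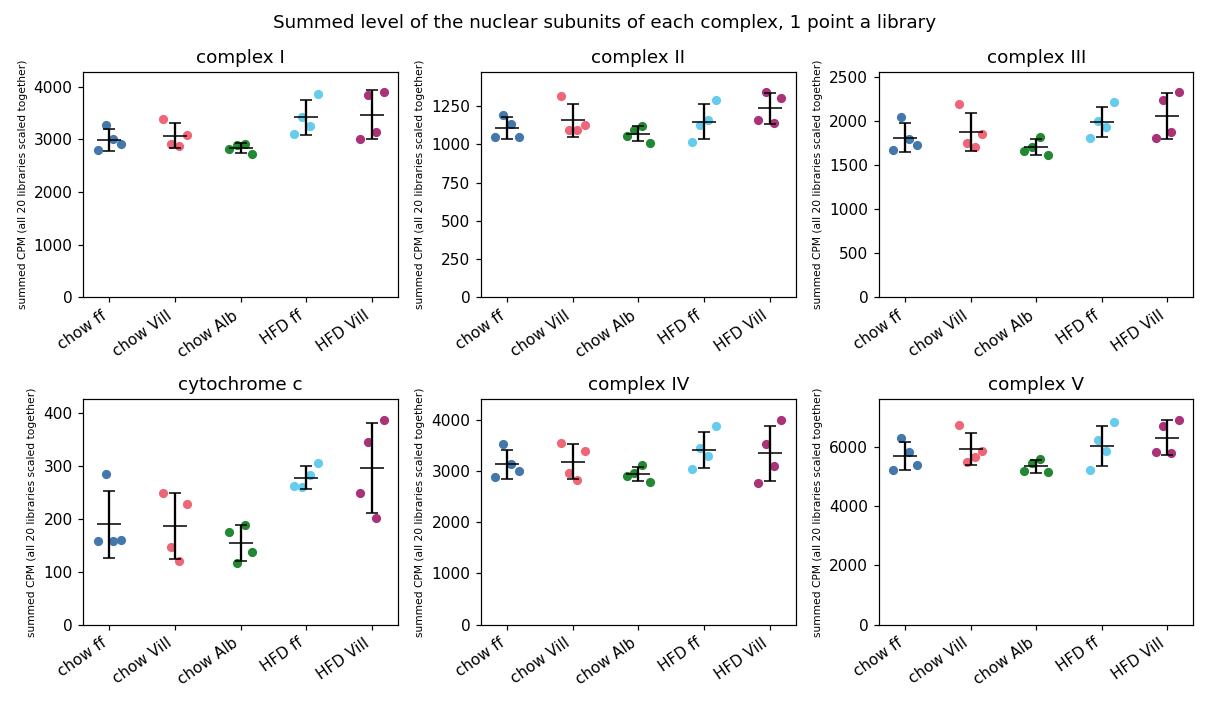
Summed CPM of the members of each complex (all 20 libraries scaled together) by group, 1 point a library, with bars for the mean ± SD of 4 libraries. The genotypes overlap within each diet in every complex, and cytochrome c shows the widest spread.

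The complexes took similar proportions of the members' summed CPM in each group. Complex V took 38.1 ± 0.421% in chow ff, 38.5 ± 0.856% in chow Vill and 38.1 ± 0.410% in chow Alb, against 37.0 ± 0.662% in HFD ff and 37.8 ± 1.15% in HFD Vill. Complex I took 20.1 ± 0.330% in chow ff and 21.0 ± 0.341% in HFD ff, and complex IV 21.0 ± 0.164% and 21.0 ± 0.137%. The spread of complex IV was wider in Vill, at 20.7 ± 0.858% on chow and 20.0 ± 1.12% (18.6% to 21.3%) on HFD. Most single members were also steadier than the median gene. The SD of log2 CPM within a group had a median of 0.139 over the 86 members tested on chow, beside 0.3 over all genes tested, and 0.199 beside 0.282 on HFD. Members are more abundant than most genes, and counting noise is smaller at higher counts. On chow 6 members exceeded the all-gene median: Ndufa4l2 (0.47), Cycs (0.424), Cox8b (0.395), Ndufa12 (0.37), Cox4i2 (0.352) and Cox7a1 (0.321). On HFD 9 did, and Ndufa12, an accessory subunit of complex I named here after its values were seen, had the largest SD at 0.812. Ndufa12 had 52.9, 76.1, 48.4 and 27.8 CPM in HFD ff and 21.7, 75.3, 34.5 and 96.1 CPM in HFD Vill, a 4.43-fold range with the genotypes overlapping.

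Members rose and fell together from library to library. In chow ff library 2, 80 of 86 tested members lay above the mean of their own level over the chow libraries, as did 76 in chow Vill library 1 and 67 in chow Vill library 4. In chow Alb library 4 only 6 did, and in chow ff library 1 only 9. On HFD, ff library 4 had 81 of 85 members above the diet's mean, and Vill libraries 2 and 4 had 78 and 77, while Vill libraries 1 and 3 had 9 and 11. Over all tested genes this share was between 46.9% and 53.5% in each library. These levels are CPM after TMM, a scaling between libraries, and the order of the libraries depended on it. Chow Vill library 4 had 1.445% of its reads in members, and chow Vill library 3, with 20 of 86 above the mean, had 1.508%. The members' summed TPM was 28530 in HFD Vill library 4 and 28970 in HFD Vill library 3. Their share of reads kept the order, at 1.714% and 1.579%. The median member's deviation from its diet mean, in log2, ran from -0.10 to 0.20 in chow ff, from -0.07 to 0.24 in chow Vill, from -0.11 to 0.18 in HFD ff and from -0.24 to 0.16 in HFD Vill. Libraries of each of these 4 groups thus lay on both sides of the diet mean, while the 4 chow Alb libraries all lay below it, from -0.13 to -0.00115, with 6, 18, 23 and 42 of 86 members above the mean.

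**Figure D3:**
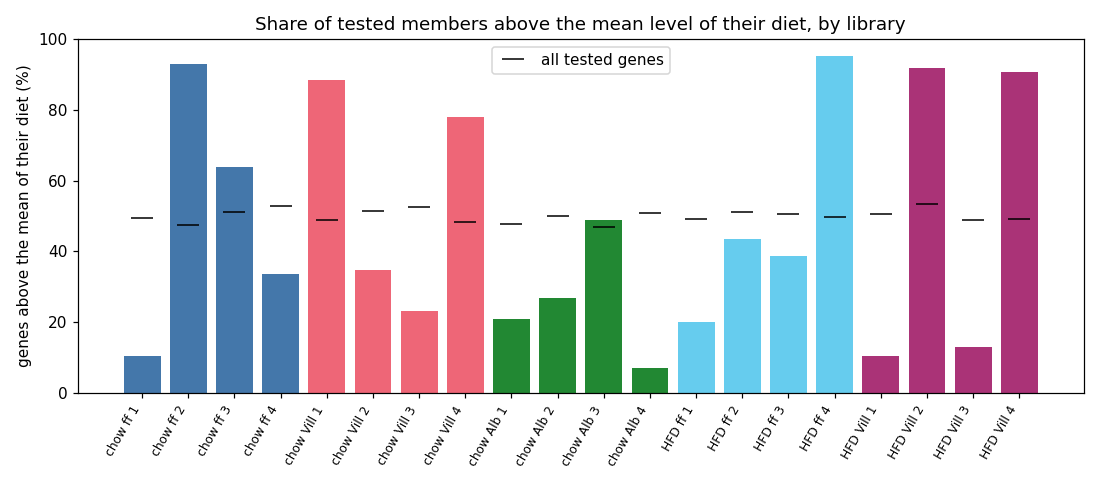
Share (%) of tested members above the mean log2 level of their diet, 1 bar a library coloured by group, with the same share over all tested genes as a short line. Levels are CPM after TMM scaling. Chow ff, chow Vill, HFD ff and HFD Vill each hold libraries well above and well below the share over all tested genes.

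The makeup of the tissue pieces also differed between these libraries. The 12 colon epithelium markers summed to 31350 CPM in chow Vill library 1, 24500 in chow ff library 2 and 24390 in chow Alb library 3, the highest of the chow libraries. They summed to 10710 CPM in chow Vill library 3, where the 10 smooth muscle markers were also lowest on chow, at 1156 CPM, against 12700 in chow Alb library 3. On HFD, epithelial sums ran from 10270 CPM in Vill library 3 to 18740 CPM in ff library 3. In these libraries 11 and 33 of 85 members lay above the diet's mean. The sums were 18620 CPM in ff library 1, 18360 in Vill library 1 and 18170 in ff library 4. There 17, 9 and 81 members lay above. Chow ff library 1, where 9 of 86 members lay above, had 19240 CPM. The single marker Car1 weighed unevenly in these sums. It gave 6942 and 5785 CPM in HFD ff libraries 3 and 1, but 788.1 in HFD ff library 4. In HFD Vill libraries 1 and 3 it gave 1345 and 265.6 CPM. On chow it gave 9593 CPM in Vill library 1 and 642.8 in ff library 1. The part of tissue makeup in the members' levels was not tested. In bulk tissue, fewer cells of a type and less RNA per cell cannot be told apart.

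The effect of losing Pcca in the epithelium was read from chow Vill against chow ff. No member of 86 passed an adjusted p of 0.05 in edgeR's quasi-likelihood test, where 0.00508% of 19701 genes did, nor in DESeq2 or limma-voom. At an unadjusted p under 0.05 there was 1 member, against 1.9% of all genes. That member was Ndufb3, an accessory subunit of complex I. It had 41.4, 48.0, 44.2 and 46.7 CPM in ff and 43.2, 39.5, 36.3 and 38.8 CPM in Vill. In 3 of 4 cases the Vill library lay below all ff libraries, with a log2 fold change of -0.19 (95% interval -0.37 to -0.01, edgeR adjusted p = 1).

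Members with the next smallest p were Atp5o, the stalk subunit OSCP of ATP synthase (log2 0.17, SE 0.101), Atp5e, its epsilon subunit (0.11, SE 0.0761), and Uqcrc1 (0.14, SE 0.103), each with an edgeR adjusted p of 1. Of the 86 members 57 were higher and 29 lower in Vill, with a median log2 fold change of 0.03, beside 0.00 over all genes. No tested member's 4 Vill libraries lay entirely above or below its 4 ff libraries, where 0.665% of all genes were higher and 0.68% lower in that way. Cox6a2, which was not tested, is described with the isoforms below. For 82 of the 86 the 95% interval of the difference lay within 1.5-fold in either direction. The median changed sign without ff library 1 (-0.02), ff library 4 (-0.00472), Vill library 1 (-0.04) or Vill library 4 (-0.00767). Without Vill library 1, 3 members lay lower in Vill without overlap, where 1.62% of all genes did with the same libraries, and without ff library 1, 1 did, where 1.19% did.

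The catalytic and core members showed the same closeness between genotypes. Sdha, the flavoprotein of succinate dehydrogenase, had 436.3 ± 36.5 CPM in chow ff and 472.4 ± 52.3 in chow Vill (SD, n = 4), and Sdhb, its iron-sulfur subunit, had 179.5 ± 28.0 and 187.0 ± 32.5. Ndufv1, which binds NADH in complex I, had 149.8 ± 12.1 and 163.2 ± 19.6. In complex III, Uqcrfs1 (the Rieske protein) had 264.2 ± 32.7 and 274.6 ± 40.9, and Cyc1 (cytochrome c1) had 273.1 ± 23.3 and 292.4 ± 51.7. Cox4i1 had 480.2 ± 79.0 and 501.6 ± 84.5, and Atp5b had 1654 ± 172 and 1740 ± 205. Each of these differences was smaller than the larger SD of its pair of groups.

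Related lists gave no call in this comparison either. All 13 mitochondrially encoded subunits were higher in chow Vill, with a median log2 of 0.14 and 1 at an unadjusted p under 0.05. Of 44 assembly factors 34 were higher (median 0.05), as were 14 of 15 citric acid cycle genes (median 0.08) and 12 of 14 regulators of mitochondrial biogenesis (median 0.15). All 10 smooth muscle markers were lower, with a median of -0.51, and all 8 cell division genes were higher, with a median of 0.12. Neither list had a called gene, and its part in the members' levels was not tested.

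Chow Alb against chow ff asks whether the colon changes when Pcca is deleted in the liver. Members lay mostly lower in Alb, by small amounts: 75 of 86 were lower, with a median log2 fold change of -0.11, beside 0.00 over all genes. None of the 86 was called by edgeR, where 0% of 19701 genes were, and DESeq2 called 11 genes, no member among them. At an unadjusted p under 0.05 there were 2 members (Ndufab1 and Atp5j), against 4.4% of all genes. All 17 members of complex V and all 9 of complex III had a lower mean in Alb, as did 31 of 37 of complex I and 14 of 18 of complex IV. The median was -0.02 without ff library 2, and lay between -0.13 and -0.08 under each of the other alternatives.

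Other lists leaned one way in this comparison without a called gene. All 8 cell division genes were lower in Alb than in ff (median log2 -0.67, 7 at an unadjusted p under 0.05), with summed levels of 179.9 to 339.6 CPM in Alb and 314.2 to 600.4 CPM in ff. All 10 smooth muscle markers were higher (median 0.31), as were 9 of 10 neuron and glia genes (median 0.51), and all 8 plasma and B cell genes were lower (median -0.72). The 5 squamous epithelium markers tested, of 8, were higher (median 2.16, 3 at an unadjusted p under 0.05). Their part in the members' levels was not tested. Of the related lists, 31 of 44 assembly factors (median -0.05) and 12 of 15 citric acid cycle genes (median -0.05) were lower, while 11 of 13 mitochondrially encoded subunits were higher (median 0.12).

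Ndufab1, the mitochondrial acyl carrier protein, which also serves as a subunit of complex I, had the smallest p. It had 47.4, 61.8, 56.7 and 50 CPM in chow ff and 46.3, 49.3, 44.0 and 47.1 in chow Alb. Only Alb library 2 reached above the lowest ff library (log2 -0.21, SE 0.094, edgeR adjusted p = 0.99). Atp5j, the coupling factor 6 of ATP synthase, had 156.0, 189.2, 175.9 and 154.5 CPM in ff and 138.8, 149.8, 152.7 and 147.9 in Alb. Its groups did not overlap (log2 -0.20, SE 0.0884, edgeR adjusted p = 0.99). Ndufa8 (log2 -0.19) and Ndufa3 (-0.22), accessory subunits of complex I, followed with the same adjusted p.

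In 5 members all Alb libraries lay below all ff libraries, 5.81% of those tested, where 1.59% of all genes did. These were Atp5pb, Sdhd, Atp5j, Ndufa8 and Ndufa13. In Ndufa7 all Alb libraries lay above, 1.16% of members, where 1.23% of all genes did. These counts depended on the scaling and on single libraries: 1 lower and 1 higher member remained separated with RLE size factors, 0 and 1 with upper-quartile scaling, and none with total counts. Over all genes the lower share was 1.45% with RLE size factors, 1.21% with upper-quartile scaling and 0.959% with total counts. Without Alb library 3 the counts were 15 lower and 2 higher, where 3.1% of all genes were lower and 2.7% higher with the same 7 libraries. Without ff library 1, 8 were lower (2.49% of all genes), and without ff library 2 or Alb library 4, 3 were (3.36% and 3.65% of all genes). Sdhd had 275.7, 256.8, 269.3 and 262.6 CPM in ff and 234.4, 256.3, 244.0 and 239.0 in Alb, so that the highest Alb and the lowest ff library nearly met.

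Chow Vill against chow Alb compares the sites of deletion, and shares its libraries with both comparisons above. Here 77 of 86 members were higher in Vill, with a median log2 fold change of 0.14 beside 0.02 over all genes. All 9 members of complex III, all 4 of complex II and 16 of 17 of complex V had a higher mean in Vill. No member was called, where 0.00508% of 19701 genes were, and DESeq2 called 90 genes, no member among them. At an unadjusted p under 0.05 there were 6 members, all higher, which is 6.98% of those tested and below the 8.87% of all genes. The median stayed above 0 under all 14 alternatives, from 0.06 without Vill library 1 to 0.16 without Vill library 3.

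Ndufab1 led again, with 59.5, 59.5, 55.7 and 53.1 CPM in Vill and 46.3, 49.3, 44.0 and 47.1 in Alb. All Vill libraries lay above all Alb libraries, at a log2 fold change of 0.29 (95% interval 0.08 to 0.49, edgeR adjusted p = 0.515, DESeq2 adjusted p = 0.274). Ndufa8 had 101.4, 79.1, 85.7 and 84.3 CPM in Vill and 76.0, 73.5, 75.3 and 75.5 in Alb (log2 0.22, SE 0.0919, edgeR adjusted p = 0.551). Atp5j (log2 0.21) and Atp5o (0.23) were similar in size. In 6 tested members (Sdhd, Atp5j, Ndufa8, Ndufa3, Ndufab1 and Atp5o) the groups did not overlap and Vill was higher. That is 6.98% of those tested, where 2.59% of all genes did so. In none was Vill lower, where 2.12% of all genes were. The count of 6 was 3 with RLE size factors (2.33% of all genes) or without Vill library 1 (3.21% of all genes). It was 10, or 11.6% of members, without Alb library 3, and 14, or 16.3%, without Vill library 3, where 3.62% and 3.26% of all genes were higher with the same libraries.

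Here too other lists leaned one way without a called gene. All 8 cell division genes were higher in Vill than in Alb, with a median of 0.80 and all 8 at an unadjusted p under 0.05, and their summed level was 383.1 to 560 CPM in Vill and 179.9 to 339.6 CPM in Alb. All 10 smooth muscle markers were lower, with a median of -0.84, and their summed level was 1156 to 7392 CPM in Vill and 4838 to 12700 CPM in Alb. Their part in the members' levels was not tested. The 44 assembly factors (37 higher, median 0.12) and the 15 citric acid cycle genes (14 higher, median 0.17) leaned the same way as the members. The 13 mitochondrially encoded subunits did not lean either way, with 7 higher and 6 lower (median 0.01).

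**Figure D4:**
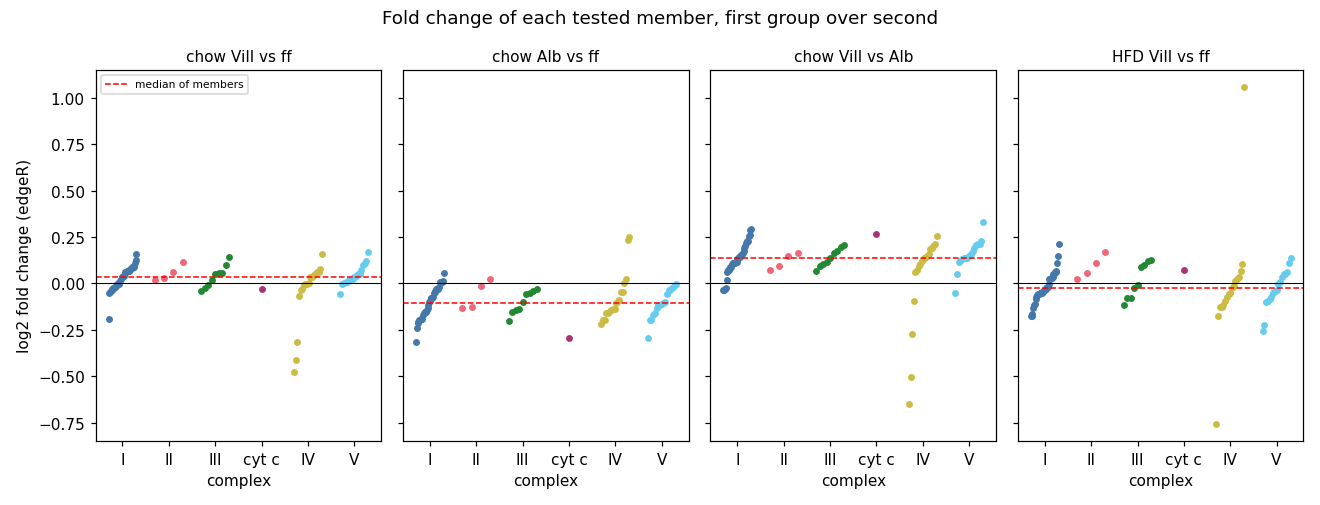
Log2 fold change (edgeR, vertical axis) of each tested member by complex in 4 comparisons, first group over second, with a dashed line at the members' median. The median is 0.03, -0.11, 0.14 and -0.03 from left to right. The largest change is that of Cox4i2 (-0.477) in chow Vill against ff and of Ndufa12 (-0.316) in Alb against ff. It is that of Cox8b (-0.648) in Vill against Alb and of Ndufa4l2 (1.06) in HFD Vill against ff. Ndufa12 belongs to complex I, and the others are sparsely counted complex IV isoforms.

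On the high fat diet, Vill against ff gave a different balance of small differences. Of 85 members 35 were higher and 50 lower in Vill, with a median log2 fold change of -0.03, beside -0.00382 over all genes. No member was called by edgeR, DESeq2 or limma-voom, where edgeR called 0.00564% of 17715 genes. At an unadjusted p under 0.05 there was 1 member, against 3.45% of all genes. It was Ndufa4l2, a paralog of Ndufa4 known as a hypoxia-responsive gene, at 0.525, 0.195, 0.292 and 0.187 CPM in ff and 0.927, 0.459, 0.426 and 0.725 in Vill. These rest on 4 to 17 reads a library, next to the abundant overlapping gene Shmt2, with a log2 fold change of 1.06 (95% interval 0.02 to 2.10, edgeR adjusted p = 0.932).

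Ndufs1, the largest iron-sulfur subunit of complex I, had 144.8, 173.7, 167.8 and 192.0 CPM in HFD ff and 184.7, 198.5, 189.8 and 213.3 in HFD Vill. Only ff library 4 reached into the Vill range (log2 0.21, SE 0.109, edgeR adjusted p = 0.932). Atp5e had 112.6, 109.4, 116.6 and 148.5 CPM in ff and 88.6, 117.8, 90.7 and 110.2 in Vill (log2 -0.26, SE 0.139), and Atp5mpl, a small ATP synthase subunit, had a log2 of -0.23 (SE 0.143), both with an edgeR adjusted p of 0.932. All 4 subunits of complex II had a higher mean in HFD Vill (median log2 0.08), while 24 of 37 of complex I and 11 of 17 of complex IV had a lower one. In 1 member, Uqcrc2, a core subunit of complex III, all Vill libraries (343.5 to 367.8 CPM) lay above all ff libraries (278.5 to 343.4 CPM), 1.18% of members, where 1.22% of all genes did. In none did Vill lie below, where 0.909% of all genes did. Uqcrc2 no longer separated with RLE, upper-quartile or total-count scaling. Leaving out any 1 library gave 0 to 3 members above and 0 or 1 below. The counts were highest, at 3 above and 1 below, without ff library 4 (3.1% of all genes above and 2.65% below with the same libraries) or Vill library 3 (3.11% and 2.84%). Without ff library 3 or Vill library 4 no member separated, where 1.74% and 1.98% of all genes lay above and 1.66% and 2% below. Without ff library 1, 2 lay above (1.54% of all genes), and without ff library 2 or Vill library 2, 1 lay above and 1 below (3.66% and 2.48% of all genes above, 2.74% and 1.98% below).

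Single libraries set the sign of the HFD median. It was 0.05 without ff library 4 or Vill library 1, 0.01 without Vill library 3, and -0.10 without Vill library 4. Without ff libraries 1 and 3, which carried the most Fabp6 of the HFD libraries, it was -0.09. Then 3 members lay above and 4 below without overlap, where with these 6 libraries 3.39% of all genes lay above and 3.5% below. The small intestine markers summed to 1352 and 1950 CPM in ff libraries 1 and 3. They also summed to 1475 CPM in chow ff library 2 and 1279 CPM in chow Vill library 1. In the HFD comparison 11 of 12 tested small intestine markers were lower in Vill (median -0.79), and all 10 neuron and glia genes were lower (median -0.79). The 7 adipocyte markers tested, of 10, were lower too (median -1.05). All 8 cell division genes were higher in Vill (median 0.33, 2 at an unadjusted p under 0.05), while the members' median was -0.03. Their part in the members' levels was not tested. The related lists were near balance: 5 of 13 mitochondrially encoded subunits, 19 of 44 assembly factors and 9 of 14 biogenesis regulators were higher, but 13 of 15 citric acid cycle genes were (median 0.09), with none called.

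The difference between diets of the Vill effect was tested as an interaction over 16 libraries. No member was called, where 0% of 19516 genes were, and 1 had an unadjusted p under 0.05, against 2.54% of all genes. It was Atp5e, with an interaction of -0.36 on the log2 scale (95% interval -0.70 to -0.01, edgeR adjusted p = 1). The median over members was -0.05, beside -0.01 over all genes, with 27 above and 59 below 0. Ndufa4l2 had the next smallest p (1.39, SE 0.714, edgeR adjusted p = 1). At this depth the 95% interval stayed within 1.5-fold for 66 of 86 members.

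Larger differences between libraries followed the diet groups. These set 2 separately counted tables side by side, scaled together, so diet, age, sex and the separate counting cannot be told apart, and no test was made. All 8 HFD libraries of ff and Vill lay above all 8 chow libraries of ff and Vill in 12 of 86 members, 14%, where 3.45% of 20280 genes did. They lay below in 2 members, 2.33%, where 2.31% of all genes did. The median log2 difference over members was 0.14, beside 0.0075 over all genes, and 57 of 86 members had a higher mean on HFD. By complex the median was 0.21 for complex I, 0.04 for II, 0.13 for III, -0.00235 for IV and 0.13 for V, and 0.61 for Cycs. The count of 12 was 15 with total counts (3.85% of all genes), 13 with each diet scaled alone (4.47%) and 14 without HFD ff libraries 1 and 3 (5.44%).

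Complex V gave the widest gap. Atp5o had a mean of 37.3 ± 3.86 CPM over the 8 chow libraries and 121.3 ± 12.0 over the 8 HFD libraries, a ratio of 3.25. Its chow values ran from 31.9 to 45.5 CPM and its HFD values from 105.2 to 136.4 CPM. Atp5o overlaps a second annotated row of the same name and the antisense gene D430001F17Rik. Atp5l followed at 82.0 ± 7.99 against 160.5 ± 30.9 CPM, and Atp5h, the peripheral stalk subunit d, and Atp5c1, the gamma subunit of the rotor, had ratios of 1.43 and 1.25. Atp5d, the delta subunit, went the other way, at 346.7 ± 35.1 CPM on chow and 273.4 ± 24.5 on HFD.

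In complex III, Uqcrb, which encodes a small subunit near the quinone site, had 116.2 ± 18.7 CPM on chow and 233.4 ± 46.8 on HFD. In complex I, Ndufb6 (31.5 to 61.0 CPM, ratio 1.94), Ndufab1 (55.9 to 100.1, ratio 1.79), Ndufb8 (ratio 1.71), Ndufa9 (ratio 1.66) and Ndufb3 (ratio 1.57) were separated upward. Ndufs7, the core iron-sulfur subunit next to the quinone site, was separated downward, at 94.0 ± 10.8 on chow and 65.9 ± 7.81 CPM on HFD. In complex IV, Cox7b (ratio 1.58) and Cox5a (118.1 ± 13.8 against 183.6 ± 27.6 CPM) were separated upward, while the abundant Cox6a1 and Cox8a had ratios of 0.696 and 0.77 with overlapping libraries. Cycs had 187.6 ± 58.3 CPM on chow and 286.8 ± 58.7 on HFD, also with overlap. Subunits of 1 complex therefore did not share 1 ratio. Of the 12 members separated upward, 9 overlap another annotated gene in the tables' coordinates, as do 31 of the 74 other members tested; the part of this in the differences was not tested.

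**Figure D5:**
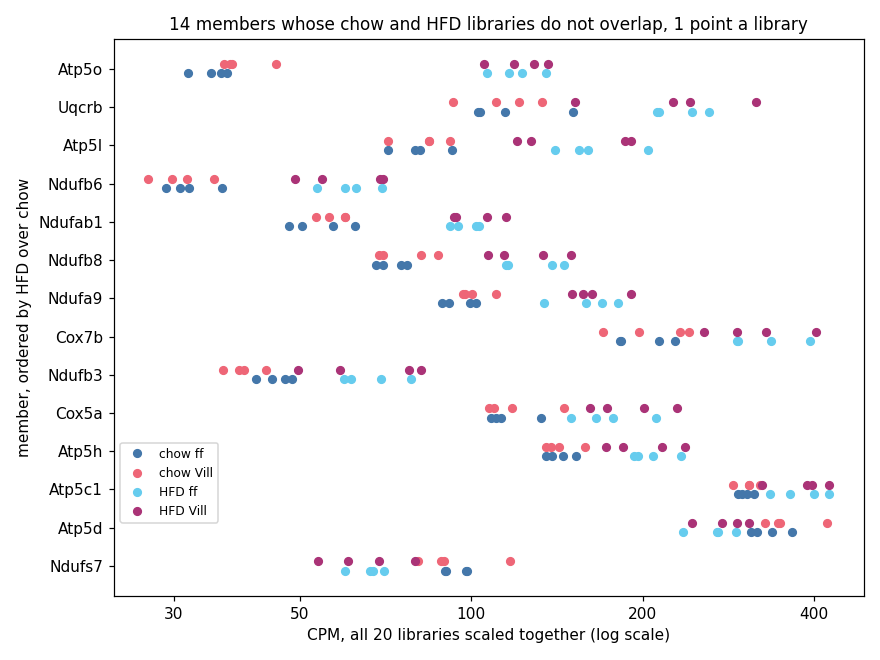
CPM (horizontal log axis, all 20 libraries scaled together) of the 14 members whose 8 chow and 8 HFD libraries of ff and Vill do not overlap, 1 point a library, coloured by group. Atp5o shows the widest gap, and Atp5d and Ndufs7 are the members lower on HFD.

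Several complex IV positions can be filled by a common or a tissue-restricted isoform. The restricted share was computed from levels per length. Cox7a1, the heart and skeletal muscle isoform, supplied 15.9 ± 3.42% of the Cox7a1 and Cox7a2 pair in chow ff, 16.4 ± 3.24% in chow Vill, 15.2 ± 4.31% in chow Alb, 15.1 ± 2.69% in HFD ff and 15.9 ± 3.41% in HFD Vill (SD, n = 4). Single libraries ran from 11.5% to 20.8%, and all 5 groups overlapped. Cox7a2l, the assembly-related relative known to act on supercomplexes, had 151.1 ± 15.2 CPM in chow ff, 168.4 ± 23.1 in chow Vill, 179.6 ± 32.1 in chow Alb, 180.0 ± 10.6 in HFD ff and 171.0 ± 17.4 in HFD Vill.

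The other restricted isoforms were rare. Cox6b2, known from testis, made up 0.758% to 0.810% of its pair as group means, and Ndufa4l2 0.262% to 1.25%. Cox4i2, known from lung, made up 0.16% to 0.312%, and the muscle isoform Cox8b 0.0749% to 0.256%. Cox6a2, the heart and muscle isoform, failed the expression filter on both diets and was tested in neither, and Cox8b failed it on HFD. Cox6a2 had 30 reads in all in chow Vill, between 4 and 12 a library, against 4 in chow ff, 1 in chow Alb, 3 in HFD ff and 1 in HFD Vill, with at most 2 in any library outside chow Vill. The chow Vill levels were 0.140 to 0.386 CPM. How many other genes with as few reads show such a difference was not counted. Cox6a2 overlaps Itgad. The summed skeletal and heart muscle markers were 9.31 to 22.9 CPM in chow Vill and 13.6 to 31 CPM in chow ff. The part of muscle tissue in the Cox6a2 reads was not tested.

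The c-ring of ATP synthase is built from identical proteins encoded by Atp5g1, Atp5g2 and Atp5g3, named here after their values were seen. Atp5g3 supplied 62.5 ± 2.63% of their summed level per length in chow ff, 63.1 ± 1.24% in chow Vill, 61.0 ± 2.55% in chow Alb, 64.2 ± 1.23% in HFD ff and 65.5 ± 0.704% in HFD Vill. Atp5g2 supplied 22.0% to 28.6% and Atp5g1 10.4% to 12.5% as group means. The genotypes overlapped within each diet for all 3 genes.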

How the data were processed

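RNA of whole mouse colon was sequenced as polyA libraries in 20 samples, 5 groups of 4. Per the file headers, the authors deposited raw counts, FPKM and normalized counts (a signal scaled between libraries), plus their own log2 fold changes and p-values. Mentioned in the submitters' processing notes are the mm39 build, the aligner HISAT2 (2.0.5) and the counter featureCounts (1.5.0-p3), with edgeR 3.22.5 and DESeq2 1.20.0 listed without the columns they made. Only raw counts and gene lengths were used here, and 28 other per-sample columns were not. The tests were edgeR's quasi-likelihood F test (version 4.0.16, TMM, default filter, Benjamini-Hochberg over all genes tested), the 12 chow, 8 HFD and 16 ff and Vill libraries in separate fits. DESeq2 1.42.0, limma-voom 3.58.1, other scalings, no filter, a replicate block and leaving out libraries were alternatives. The edgeR code was checked on simulated counts. P-values measure only the spread between these samples.

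The members and lists were chosen with earlier results of these data known. Named members are those called, the 4 with the smallest p in each comparison, fixed core subunits, isoform pairs, and the highest, lowest and filtered members. Atpif1, on the fixed list, does not meet the membership rule, and 1 other gene of that list is not reported here. The levels across diets and the 4 motifs were chosen after the tables were seen. Replicate numbers were not taken as pairs. Same-numbered samples correlated between -0.663 and 0.57.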

Additional observations from a re-analysis of the deposited data

Results flagged for a closer look

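Groups of 4 were screened for a library far from the other 3 (Dixon's ratio of gap to range, 95% critical value). Of 250 screened, 13 stood apart, and chance gives about 1 in 20. In chow Vill library 1 the summed complex II level was 1309 CPM (others 1084 to 1117), Cyc1 was 369.5 CPM (258.5 to 271.3) and Atp5o 45.1 CPM (36.4 to 37.8). In chow ff library 2, cytochrome c, which is Cycs alone, and so listed both as a complex and as a gene, was 282.4 CPM (others 155.7 to 157.8), and Cox5a was 131.6 CPM (107.5 to 111.6). Cox4i2 was 0.920 CPM in chow Vill library 4 (0.394 to 0.450). On HFD, Ndufa4 was 185.6 CPM in Vill library 2 (109 to 121.1), and Ndufs7 was 60.3 CPM in ff library 2 (68.7 to 70.3). Cox6a2 was above 0 in a single library of its group in HFD Vill (library 3, 0.0532 CPM, 0.0154% of its pair) and in chow Alb (library 4, 0.0316 CPM, 0.00705% of its pair), each from 1 read.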

How the results depend on the processing

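No member was called under any alternative. Genes called, 1, 0, 1 and 1 in the order chow Vill against ff, Alb against ff, Vill against Alb and HFD Vill against ff, were 3, 11, 90 and 2 with DESeq2. Chow Vill against ff gave 2 without the filter. With the replicate block it and Vill against Alb gave 0. HFD gave 2 without ff replicates 1 and 3. Tested members without overlap (0, 6, 6 and 1) were 2 for Alb against ff with RLE, 1 with upper-quartile and 0 with total counts. Over all genes the higher and lower shares were 1.39% and 1.45%, 1.52% and 1.21%, and 1.66% and 0.959% in this order. For Vill against Alb the members were 3 with RLE, where 2.33% of all genes were higher and 2.2% lower. On HFD they were 0 with RLE, upper-quartile and total counts. There 1.17%, 0.875% and 0.463% of all genes were higher and 0.931%, 1.18% and 1.45% lower. Without HFD ff replicates 1 and 3 they were 7, where 3.39% of all genes were higher and 3.5% lower. Leaving out 1 replicate gave 0 to 3, 4 to 17, 3 to 14 and 0 to 4 members. With the same libraries 1.11% to 2.19% of all genes were higher and 1.19% to 2.51% lower in chow Vill against ff. The shares were 2.1% to 4.02% and 2.37% to 3.65% in Alb against ff. In Vill against Alb they were 3.21% to 4.73% and 3.1% to 6.13%, and on HFD 1.54% to 3.66% and 1.42% to 2.84%. Without 1 replicate, Cycs ranged from -0.22 to 0.23 in chow Vill against ff and from -0.0864 to 0.22 on HFD. It changed sign in chow Vill against ff without ff replicate 2 (0.23) or Vill replicates 2 (0.06) or 3 (0.13), and on HFD without Vill replicates 2 (-0.00642) or 4 (-0.0864). The labels do not say whether replicate numbers pair the samples. In each comparison 1 to 3 of 8 libraries correlated best with their own number, which cannot settle it. Depth limits Cox6a2, Cox8b, Cox4i2 and Ndufa4l2, which have few reads.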
